A study of Mus musculus with 2 samples.

Results

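The 10 genes described here belong to innate immune sensing and the colony-stimulating factor 1 (CSF1) axis, and were followed through the first days of drug-induced fat cell formation (adipogenesis) in embryonic fibroblasts of the mouse. They are the toll-like receptor genes Tlr2, Tlr3 and Tlr4, the lipopolysaccharide co-receptor genes Cd14 and Ly96, the adaptor gene Myd88, the growth factor gene Csf1 with its receptor gene Csf1r, the complement receptor gene Vsig4 and the lysosomal glycoprotein gene Cd68. The 10 genes were taken by gene symbol and matched 13 of the 29922 gene probes on the array, out of 16637 genes with a symbol. They were selected on the day 3 against day 0 differences of these 2 arrays as well as by function, so their levels and differences are given as descriptions.

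The cells were labelled as Xbp1 knockout, and every sample here carries that label. The product of Xbp1 activates transcription when unfolded proteins load the endoplasmic reticulum. Day 3 was 1 culture sample collected 3 days after induction was begun, and day 0 was 1 culture sample at confluence, the point at which induction was begun. For the 72 h of induction the medium held 5 µM troglitazone, which activates the nuclear receptor PPARγ, insulin at 10 µg/ml, 0.25 mM IBMX, which raises cAMP by blocking phosphodiesterases, and DXM at 5 µM. No source used here says how Xbp1 was removed or from how many embryos the cells came. No cells with functional Xbp1 were part of these data as analysed here. The design set day 3 against day 0.

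With 1 single-colour array per day there are no replicates to judge a difference by, and neither a test nor a p-value was computed. Signals are quantile-normalized fluorescence intensities, and each difference is log2 of day 3 minus log2 of day 0. A signal above 122, the middle value of the gene probes, counted as detection, and a gene needed it on 1 day or both. Before normalization the gene probes had a median intensity of 166 on day 3 and 78 on day 0, while empty spots had one of 0 each day. Controls spotted 5 or 6 times per array set the technical error, a repeat-spot SD for a difference of 0.38 to 0.44 by the median feature and of 0.57 to 0.88 when pooled over features. That error leaves out the spread between cultures, RNA extractions and hybridizations. A probe's brightness also depends on its sequence, so signals are compared between days and not between genes. The Xbp1 probe gave 13561 on day 3 and 20936 on day 0, and no source used here says whether it lies within the deletion, so it leaves the knockout label unchecked.

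Toll-like receptors are membrane receptors that recognise conserved microbial molecules. TLR4 senses bacterial lipopolysaccharide together with the proteins encoded by Cd14 and Ly96, TLR2 senses bacterial lipoproteins, and TLR3 senses double-stranded RNA inside endosomes. All of them except TLR3 signal through the adaptor MyD88 to NF-κB, and fibroblasts as well as myeloid cells use this pathway. CSF1 is the growth factor that keeps macrophages alive, and fibroblasts are among the cells that secrete it, while its receptor is found mainly on cells of the macrophage lineage.

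Of the 10 genes, 9 were detected. On day 3 Vsig4 and Cd14 stood at least 2-fold above day 0, and Csf1 and Csf1r were at least 2-fold lower. The 2-fold mark was passed upward by 12.8% and downward by 10.3% of all 10656 detected genes. The median difference of the 9 genes was -0.38, against 0.03 for all detected genes. The genes were chosen with this contrast known, so nothing is read from these shares. The split of all genes depended on the scaling: 1360 were higher and 1093 lower here, 829 and 2586 under median scaling over all gene probes, 1891 and 957 under median scaling over probes above the threshold on both days, and 3940 and 315 with no normalization.

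**Figure D1:**
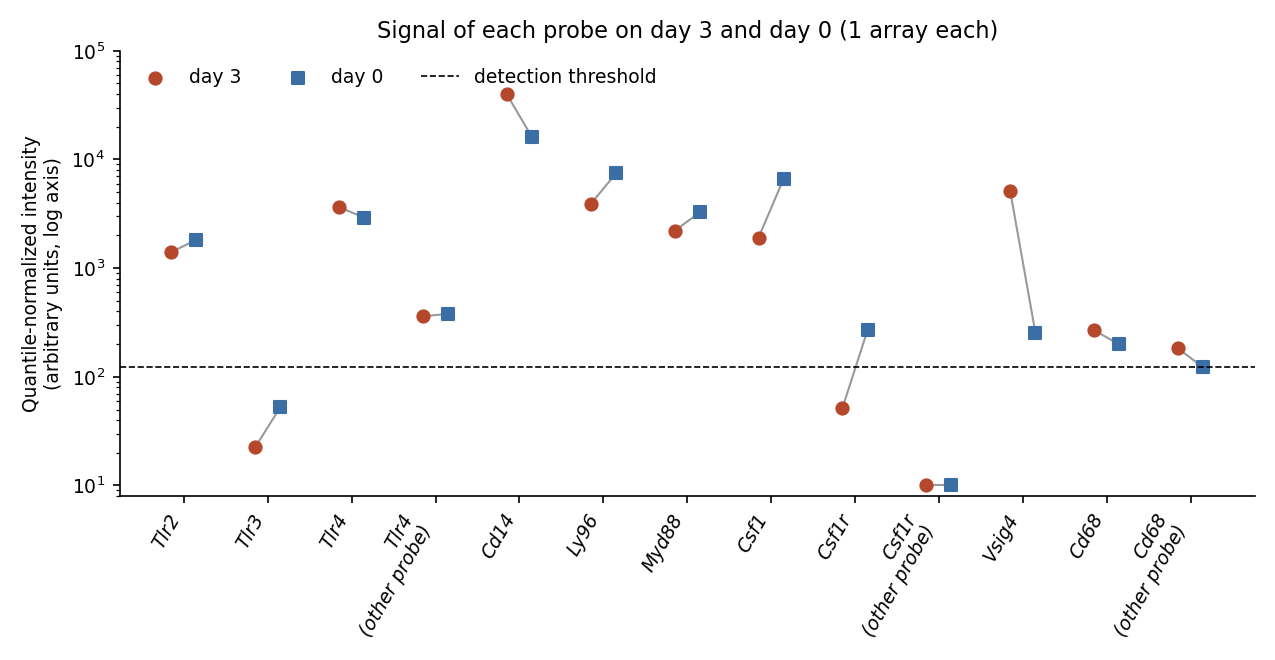
Quantile-normalized intensity (arbitrary units, log axis) of the 13 probes on day 3 (circles) and day 0 (squares), 1 array each, with the detection threshold of 122 dashed and signals under 10 drawn at 10. Vsig4 stood at 5121.5 on day 3 and 255 on day 0, and both Tlr3 signals and both signals of the other Csf1r probe lay under the threshold.

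Vsig4 showed by far the largest difference of the group. The gene encodes a receptor of the immunoglobulin superfamily that binds fragments of complement component C3, and it is known from tissue-resident macrophages. Its probe, mMC006187, read 5121.5 on day 3 and 255 on day 0, or 5867 on day 3 and 182 on day 0 before normalization. Both signals were above the threshold, and the difference was 4.33 on the log2 scale (20.1-fold higher). The pooled repeat-spot SD was 0.57 at the mean of its 2 signals, 0.88 in the range of the day 3 signal and 0.61 in that of day 0. Vsig4 ranked 6 from the top among the 10656 detected genes. Across the settings that gave it a value the difference ran from 3.92 to 5.01, and the authors' table held no value for this probe. In RNA from whole cultures, a change in the number of cells of one type and a change in the RNA per cell cannot be told apart.

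Csf1, the macrophage growth factor gene, went the other way. Its probe read 1907 on day 3 and 6658.5 on day 0, a difference of -1.80 (3.49-fold lower). The pooled repeat-spot SD was 0.57 at the mean of its 2 signals and 0.88 in the range of the day 0 signal. Csf1 was at least 2-fold lower in the main setting and in all 11 alternatives, over a range of -2.44 to -1.35. The alternatives of floor, detection, probe choice and raising dim signals to the threshold returned its main value unchanged, so they add no separate check. In the authors' table its intensities were 1815 on day 3 and 6369 on day 0.

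Vsig4 and Csf1 were the genes of the group with the largest differences above and below 0 that could be measured on both days, so the 250 bases before their annotated starts are shown. They come from RefSeq, build GRCm38.p6, in the promoter table used here, which held 6 of the 10 genes. The windows are chrX:96293439-96293688, minus strand, for Vsig4 and chr3:107760470-107760719, minus strand, for Csf1. Capitals mark matches on either strand to 3 motifs, GGG and CC separated by any 5 bases for NF-κB, TTNNGNAA for C/EBP and GAGGAA for PU.1.
Vsig4: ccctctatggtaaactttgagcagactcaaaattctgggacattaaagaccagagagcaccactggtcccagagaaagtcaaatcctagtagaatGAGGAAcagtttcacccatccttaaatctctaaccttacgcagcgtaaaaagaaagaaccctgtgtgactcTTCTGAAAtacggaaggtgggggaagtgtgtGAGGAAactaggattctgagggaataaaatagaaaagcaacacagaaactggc
Csf1: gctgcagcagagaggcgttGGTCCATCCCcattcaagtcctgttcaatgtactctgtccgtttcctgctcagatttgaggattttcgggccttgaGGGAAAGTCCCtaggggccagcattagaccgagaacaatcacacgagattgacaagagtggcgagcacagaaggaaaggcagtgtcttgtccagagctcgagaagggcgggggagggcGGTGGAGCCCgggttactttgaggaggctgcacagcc
The Vsig4 window held 2 PU.1 matches, beginning at positions -155 and -53 from the start, 1 C/EBP match at -84, and 0 NF-κB matches. The Csf1 window held 4 NF-κB matches, beginning at -231, -155, -154 and -37, of which the pair at -155 and -154 overlap, and 0 matches to the other motifs. Among all 32851 promoter windows of the same length, 45.8% held an NF-κB match, 36.8% a C/EBP match and 23.3% a PU.1 match. These short matches describe the letters of the windows and show no binding.

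Among the receptors, Tlr2 and Tlr4 were detected on both days and stayed within 1.5-fold. Tlr2 read 1403.5 on day 3 and 1825 on day 0, a difference of -0.38 that lay within its median repeat-spot SD of 0.39. Tlr4 has 2 probes. The brighter one, mMR030857, read 3637 on day 3 and 2915.25 on day 0 (0.32), and the other, mMC020916, read 361.5 on day 3 and 378.5 on day 0 (-0.07). In this setting all 3 differences lay within the median repeat-spot SD. As read, Tlr2 gave -0.97 under median scaling over all gene probes and 0.12 with no normalization, and the brighter Tlr4 probe gave -0.35 and 0.74 in those 2 settings, so that -0.97 and 0.74 exceeded the pooled SD of 0.57. Once the median of all detected genes was subtracted, Tlr2 lay between -0.55 and -0.36 and Tlr4 between 0.07 and 0.30 in all 11 alternatives.

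Tlr3 could not be followed. Its only probe read 22.5 on day 3 and 52.5 on day 0, both under the threshold of 122, so no fold is given. Before normalization it read 33 on day 3 and 24 on day 0, above the 95th percentile of empty spots, which was 9 on day 3 and 7 on day 0. Dim signal from a single probe is no evidence of a silent gene. The direction was not settled either, since the normalized signal was lower on day 3 and the raw signal was higher.

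Of 12 toll-like receptor genes on the array, 3 were detected: Tlr2, Tlr4 and Tlr1, whose product pairs with TLR2 and which read 386 on day 3 and 524 on day 0 (-0.44). None of the 3 differed 2-fold, a mark that 12.8% of all detected genes passed upward and 10.3% downward. The other 9, among them Tlr3, lay under the threshold on both days, with normalized signals of 7.5 to 75 on day 3 and up to 96.5 on day 0.

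The genes of the lipopolysaccharide receptor complex did not move together. Cd14 encodes the surface protein that hands lipopolysaccharide to the complex, and it read 39698.5 on day 3 and 16036 on day 0 (1.31, 2.48-fold higher). Ly96 encodes MD-2, the subunit that binds lipopolysaccharide beside TLR4, and it read 3892 on day 3 and 7428.5 on day 0 (-0.93, 1.91-fold lower). The pooled repeat-spot SD at these signals was 0.88, so each difference exceeded it, that of Ly96 narrowly. Cd14 was higher in all 11 alternatives (0.65 to 1.74) and at least 2-fold so in 10 of them, the exception being median scaling over all gene probes. Ly96 was lower in all 11 (-1.61 to -0.52). For both genes the alternatives that could not change Csf1 also repeated the main value.

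The gap between the genes of this complex hardly depended on the scaling, because a constant applied to an array cancels in it. The difference of Cd14 exceeded that of Ly96 by 2.24 on the log2 scale, with a range of 2.20 to 2.37 over the alternatives. Tlr4 by its brighter probe lay between them, 0.99 below Cd14 and 1.25 above Ly96. Its other probe, at -0.07, also lay between them. By the mean of its probes Tlr4 was 1.18 below Cd14 and 1.06 above Ly96. The pooled repeat-spot SD of a single difference was 0.57 for the brighter Tlr4 probe and 0.88 for Cd14 and Ly96. No error was computed for a gap between genes, so which of them Tlr4 lay nearer to is not settled. In the authors' table Cd14 stood at 36982 on day 3 and 15377 on day 0, and Ly96 at 3715 on day 3 and 7111 on day 0.

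**Figure D2:**
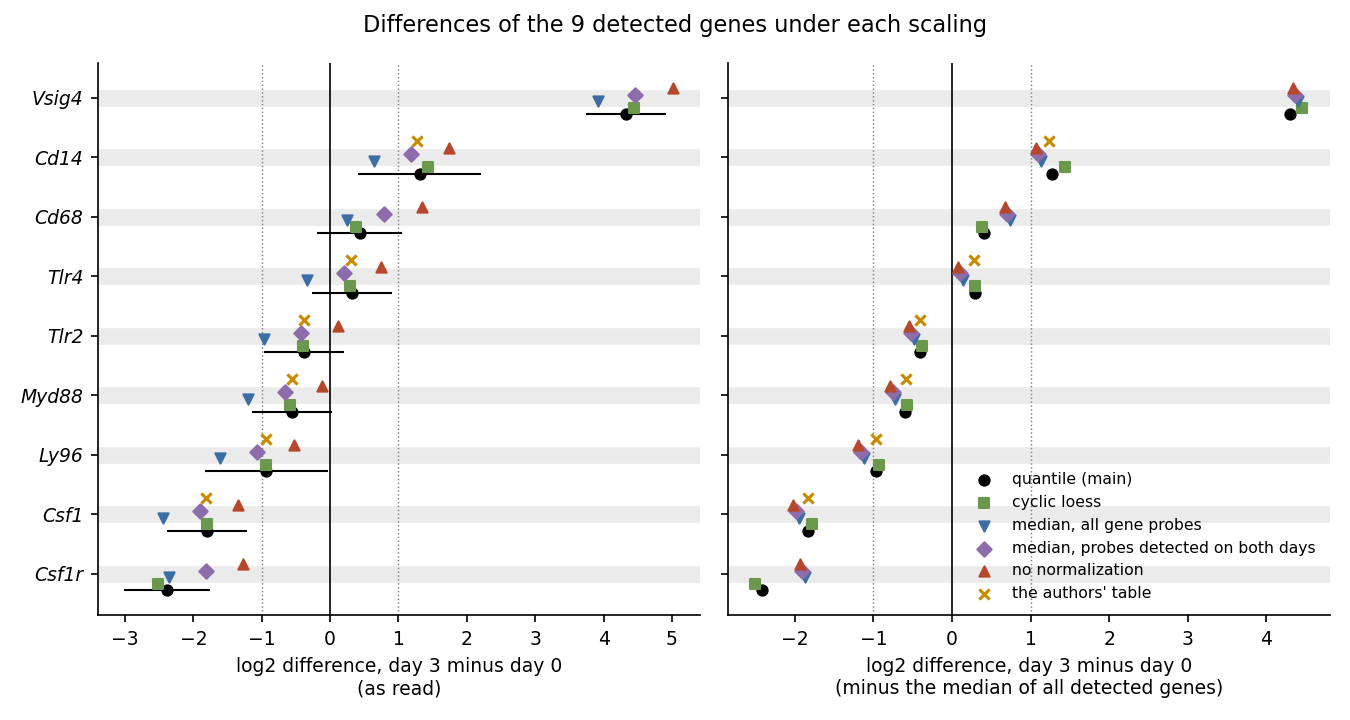
Log2 difference, day 3 minus day 0, of the 9 detected genes under 6 ways of scaling the arrays, as read (left) and after the median of all detected genes was subtracted (right); bars mark ± 1 pooled repeat-spot SD around the main value and dotted lines mark 2-fold. The scalings spread each gene on the left and lie closer together on the right, where Vsig4, Cd14, Cd68 and Tlr4 stay above 0 and Tlr2, Myd88, Ly96, Csf1 and Csf1r below it.

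Other genes of receptor handling stayed under 2-fold. Lbp, which encodes the serum protein that carries lipopolysaccharide to CD14, read 12463.5 on day 3 and 6906 on day 0 (0.85). Unc93b1, whose product brings endosomal toll-like receptors to their compartment, read 453.25 on day 3 and 240 on day 0 (0.92). Of 9 genes for cofactors and chaperones on the array, 6 were detected, 1 was 2-fold higher (Cd14) and 0 were 2-fold lower, with a median difference of 0.54. Over all detected genes 12.8% were higher and 10.3% lower by that mark.

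Myd88, which encodes the adaptor shared by most toll-like receptors and by the interleukin-1 receptor, read 2204 on day 3 and 3257.5 on day 0. The difference of -0.56 (1.48-fold lower) was larger than the median repeat-spot SD of 0.39 and just within the pooled one of 0.57. It was below 0 in all 11 alternatives, from -1.21 to -0.12, though several of these could only repeat the main value. The 24 genes of the adaptor and kinase list on the array were all detected, and their median difference was 0.07. Ticam2, which encodes an adaptor of TLR4, read 216.5 on day 3 and 34.5 on day 0, the day 0 value under the threshold, and was thus at least 1.77-fold higher. Irf5, which encodes a transcription factor downstream of MyD88, was at least 2.92-fold lower (96.5 on day 3 and 355.75 on day 0). The other 22 genes, Myd88 included, differed by less than 2-fold by their brightest probe. For comparison, 12.8% of all detected genes were at least 2-fold higher and 10.3% at least 2-fold lower. Another detected probe of Traf6 gave -1.43, against 0.03 by the brightest, and a dim probe of Peli2 read 174.5 on day 3 and 76 on day 0, while its other probes gave 0.29 and 0.01.

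Inhibitors of the pathway were as evenly placed. Of 14 on the array 11 were detected, with a median difference of 0.15. Tnip1 and Tnip2, which encode partners of the ubiquitin-editing enzyme A20, were the 2-fold cases by brightest probe and differed in opposite directions. Among all detected genes, 12.8% passed that mark upward and 10.3% downward. Tnip1 read 1507.5 on day 3 and 671 on day 0 (1.17), and Tnip2 read 283 on day 3 and 654 on day 0 (-1.21). The other probe of Tnip1 was under the threshold on both days, and Socs1 gave -0.14 by its brightest probe and 1.29 by the other.

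Csf1r, which encodes the receptor tyrosine kinase for CSF1, was seen by 1 of its 2 probes. Probe mMC020360 read 51.5 on day 3, under the threshold, and 269.5 on day 0, so the gene was at least 2.21-fold lower. The other probe, mMC012508, read 10 on day 3 and 2 on day 0, or 14 on day 3 and 0 on day 0 before normalization. Both normalized signals lay at or under the floor of 10, so this probe could not tell the days apart. Before normalization the first probe read 80 on day 3 and 193 on day 0. The call therefore rests on 1 dim probe, and the gene left the count where both days had to exceed the threshold.

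The colony-stimulating factor list went both ways. Of its 9 genes on the array 5 were detected, 2 were at least 2-fold higher (Il34 and Csf3) and 3 at least 2-fold lower (Csf1, Csf1r and Csf2ra), with a median difference of -1.04. Over all detected genes 12.8% were 2-fold higher and 10.3% lower, and Csf1 and Csf1r were selected on this contrast. Il34, which encodes the other ligand of the CSF1 receptor, read 934.5 on day 3 and 435 on day 0 (1.10). The difference of Il34 exceeded that of Csf1 by 2.91 on the log2 scale (2.80 to 3.11 over the alternatives). Csf3, which encodes the granulocyte growth factor, read 4583 on day 3 and 517.5 on day 0 (3.15, 8.86-fold higher). Csf2ra, a receptor subunit gene for the granulocyte-macrophage factor, read 287 on day 3 and 588.5 on day 0 (-1.04). The direction of each of these 3 genes held in all 11 alternatives, several of which could only repeat the main value. Il34 ranged from 0.68 to 1.76 and Csf2ra from -1.41 to -0.32, so neither stayed beyond 2-fold throughout. The pooled repeat-spot SD of each of Il34 and Csf2ra was 0.78.

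**Figure D3:**
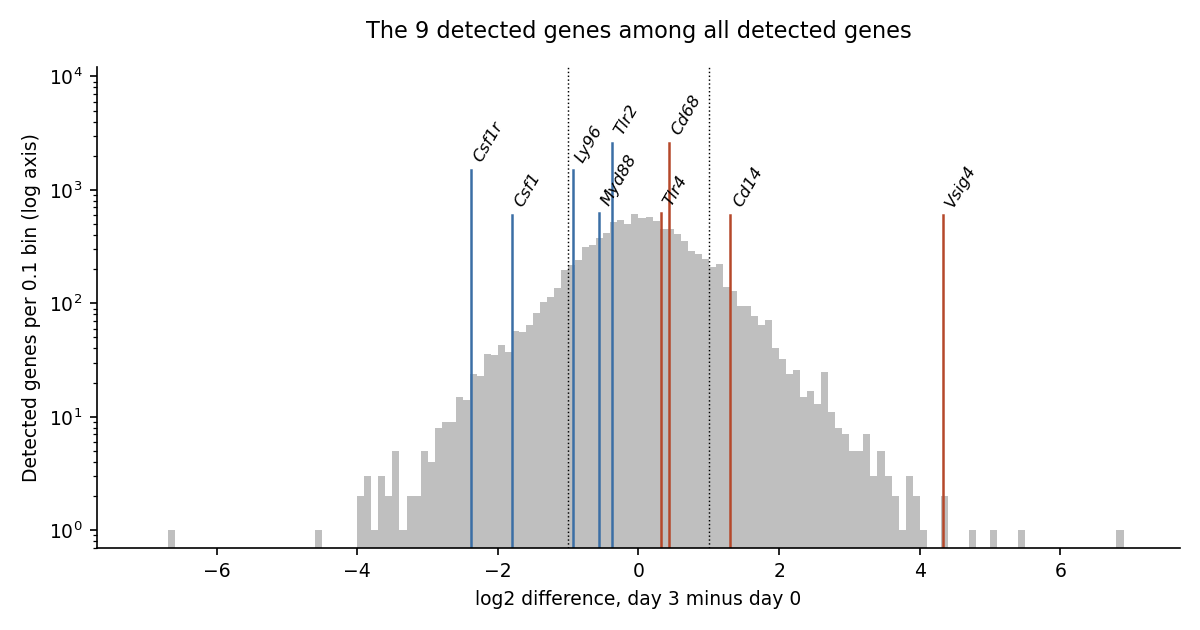
Number of detected genes (log axis) in each 0.1 bin of the log2 difference, day 3 minus day 0, with the 9 detected genes marked by lines whose heights carry no meaning; dotted lines mark 2-fold. Vsig4, at 4.33, stands in the far right tail, and Csf1 and Csf1r, at -1.80 and -2.39, in the left one. The Csf1r value rests on a day 3 signal under the threshold, so only a bound of at least 2.21-fold lower holds for it.

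Cd68, a lysosomal glycoprotein gene widely used to stain macrophages and present at lower levels in other cells, was slightly higher by both probes. Probe mMR029318 read 268 on day 3 and 198.5 on day 0 (0.43), and probe mMC007570 read 182.5 on day 3 and 122 on day 0 (0.58), with the day 0 signal at the threshold. Each difference was smaller than the pooled repeat-spot SD, 0.61. The brighter probe was above 0 in every alternative that gave it a value, from 0.25 to 1.34.

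Several scavenger and phagocytic receptor genes were measured beside Cd68. Of 19 on the array 11 were detected, 5 were 2-fold higher (4 of them also when signals under the threshold were raised to it) and 0 were 2-fold lower, with a median difference of 0.77. Over all detected genes 12.8% were 2-fold higher and 10.3% lower, a split that turned with the scaling. Scara5, a scavenger receptor gene that also takes up ferritin, read 4942 on day 3 and 766.5 on day 0 (2.69). Scara3 read 9423.25 on day 3 and 2258 on day 0 (2.06). Mrc2, a collagen uptake receptor gene of fibroblasts, gave 1.57 by its brighter probe and 0.33 by the other. Lrp1, a large endocytic receptor gene, gave 1.54 by its brighter probe and 0.45 by the other. The macrophage scavenger receptor genes Msr1, Marco, Cd163 and Mrc1 lay under the threshold on both days, at no more than 24 on day 3 and 51 on day 0. Stab1 and Cd300lf of the same list were detected on day 3. Stab1 read 210 on day 3 and 81.5 on day 0, and Cd300lf read 207.5 on day 3 and 122 on day 0.

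The complement genes around Vsig4 differed in both directions. Of 22 on the array 11 were detected, 3 were 2-fold higher and 3 were 2-fold lower, beside 12.8% higher and 10.3% lower over all detected genes. Their median difference was 0.00, which is the value of the saturated gene C3. Itgam, which encodes the alpha chain of complement receptor 3, read 3556 on day 3 and 703.5 on day 0 (2.34, 5.05-fold higher). Itgb2, which encodes the beta chain that this receptor needs at the surface, read 49 on day 3, under the threshold, and 244.5 on day 0, at least 2-fold lower. Cr1l, a regulator that limits complement activation on the cell's own surface, read 489.5 on day 3 and 2119.5 on day 0 (-2.11), and the protease gene C1s1 read 7732 on day 3 and 31402.5 on day 0 (-2.02). C3, whose product is the source of the fragments that Vsig4 binds, read at the top of the scale on both days, so a change in it could not be seen.

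Of 13 genes for sensors inside the cell on the array, 10 were detected, 3 were 2-fold higher, 2 of these also when signals under the threshold were raised to it, and 0 were 2-fold lower, against 12.8% higher and 10.3% lower over all detected genes. The list's median difference was -0.04. Sting1, which encodes the adaptor for cytosolic DNA sensing, read 1509 on day 3 and 285.5 on day 0 (2.40). Dhx58, a regulator of RNA sensing, read 566 on day 3 and 158.5 on day 0 (1.84), and Nod2, a sensor of bacterial cell wall, was at least 1.11-fold higher.

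Genes that toll-like receptors induce went both ways, with 5 of 20 detected genes 2-fold higher, 5 2-fold lower and a median difference of -0.04, beside 12.8% higher and 10.3% lower over all detected genes. The chemokine gene Cxcl2 (2.82) and the cytokine gene Il6 (2.77) were higher, and the chemokine genes Ccl20 (at least 3.68-fold) and Ccl7 (-2.92) were lower. The acute-phase gene Saa3 and the chemokine genes Cxcl1 and Cxcl5 were saturated on both days.

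**Figure D4:**
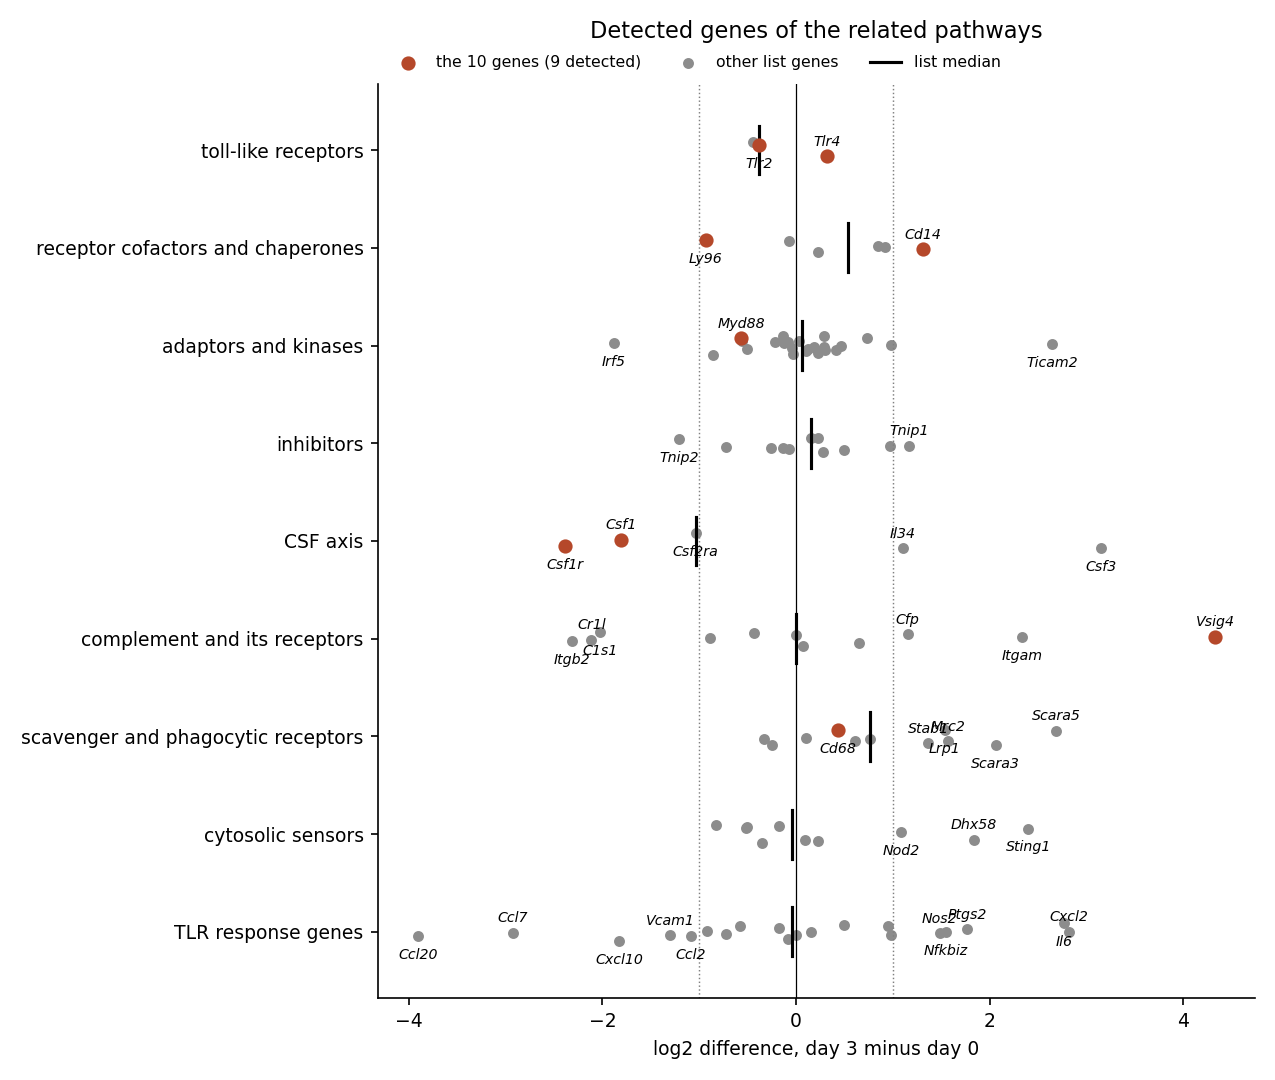
Log2 difference, day 3 minus day 0, of the detected genes in 9 related lists, with the 9 detected genes of the group in red, other list genes in grey, list medians as bars, dotted lines at 2-fold and labels on the genes beyond 2-fold. Vsig4 stands farthest right, the colony-stimulating factor list splits to both sides of 0, and the scavenger list has 5 genes beyond 2-fold on the right and 0 on the left.

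The labelled cell type was checked against marker genes. All 12 fibroblast markers were detected, 2 of them 2-fold higher (Fn1 and Lum) and 3 2-fold lower (Col1a1, S100a4 and Fap, the last with a lower bound of only 1.02-fold), with a median difference of -0.08. Among the others Pdgfra read 25958.5 on day 3 and 15721 on day 0, and Dcn was saturated on both days. Of 19 markers of myeloid leukocytes on the array, 8 were detected, 7 of them above the threshold on day 3 and 6 on day 0. Of the 8, 3 were 2-fold higher (Itgam, Fcer1g and Fcgr3, the last not so at its lower bound of 1.34-fold) and 1 was 2-fold lower (Coro1a), with a median difference of 0.09. Beside the counts of both marker lists, 12.8% of all detected genes were 2-fold higher and 10.3% lower.

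Of the 6 markers taken to define these cells, Itgam and Spi1 were detected and the other 4 were dim. Ptprc, the pan-leukocyte gene, read 1.5 on day 3 and -0.5 on day 0. Adgre1, the gene for the macrophage antigen F4/80, read 10.5 on day 3 and 4.5 on day 0. The lysozyme gene Lyz2 read 13.5 on day 3 and 66 on day 0, and the signalling adaptor gene Tyrobp read 6 on day 3 and 14 on day 0. All 4 lay under the threshold on both days. Spi1, which encodes PU.1, was detected at 366 on day 3 and 407.5 on day 0. Cd53 of the same list read 902.5 on day 3 and 751 on day 0 by its brighter probe, with the other under the threshold. Mpeg1 read 234 on day 3 and 248 on day 0, and Aif1 read 78.5 on day 3 and 131.5 on day 0. In raw intensity 4 of the 19, Ptprc, Ctss, Cd163 and Itgax, were at or under the 95th percentile of empty spots on both days. The summed signal of the list was 5923.5 on day 3 and 3113 on day 0. Itgam made up 3556 of it on day 3 and 703.5 on day 0, when Cd53 made up 751. A probe's brightness depends on its sequence, so these parts of the sum do not rank the genes. The part of myeloid cells in the Vsig4 and Cd14 differences was not tested. Tlr1, Lbp, Unc93b1, Msr1, Marco, Cd163, Mrc1, Stab1, Cd300lf, C3, Saa3, Cxcl1, Cxcl5, Pdgfra, Dcn, Col1a1, Traf6, Peli2, Socs1, Cd53, Mpeg1, Aif1, Ctss and Itgax were chosen for mention after their values were seen.

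**Figure D5:**
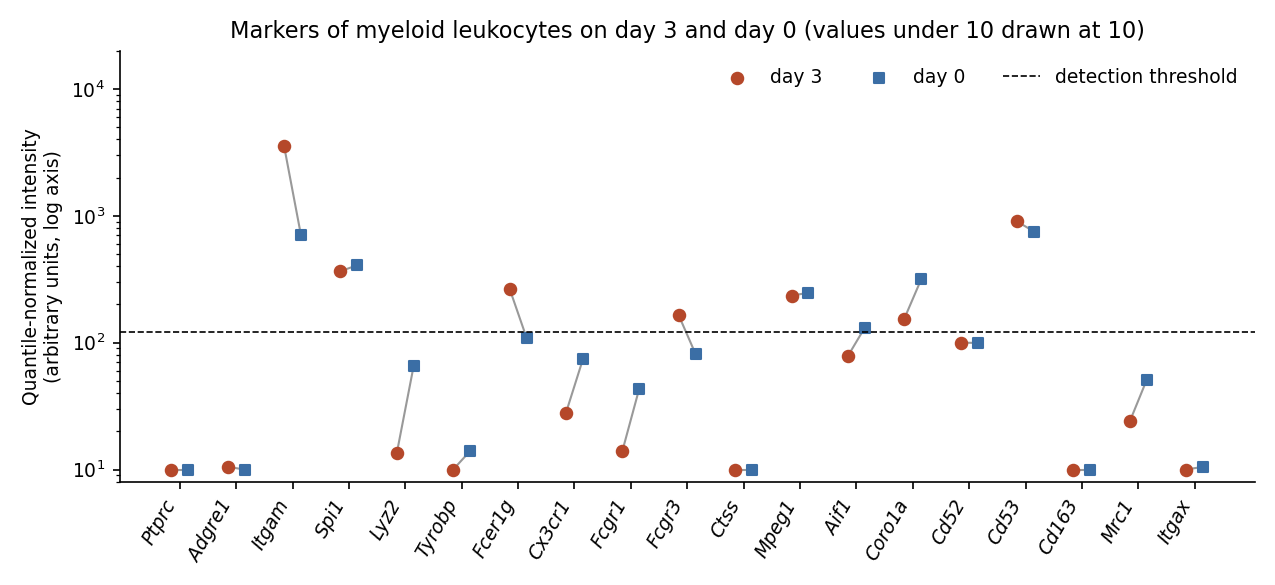
Quantile-normalized intensity (arbitrary units, log axis) of the 19 myeloid leukocyte markers on day 3 (circles) and day 0 (squares), 1 array each, with the detection threshold of 122 dashed and signals under 10 drawn at 10. Itgam stands highest on day 3 at 3556, while Ptprc, Adgre1, Lyz2 and Tyrobp lie under the threshold on both days.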

How the data were processed

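Total RNA (1 µg) was amplified and labelled with Cy5 by Phalanx, per the labels' protocols. The deposited per-sample tables give 1 linear intensity for each of 39200 spots, and background appeared subtracted already, since the 7402 empty spots had a median of 0 on both days. No source used here names the scanner or the image software. A table of the authors for both samples holds 11482 probes' intensity values with a median of 1414 on both days, on a linear scale, by a normalization and a filter that are not stated; it was used as one alternative.

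Quantile normalization over the 29922 gene probes used limma 3.58.1 (R 4.3.3), with a floor of 10 before log2. The procedure was tested on simulated data in which few probes changed, none of them dim, with noise below the pooled repeat-spot SD. That test does not cover dim probes or arrays with many changes. Raw signals of 65000 or more counted as saturated, and a fold involving a signal under the threshold of 122 is a lower bound. Platform annotation gave 1 symbol for 21020 probes and none for 8902; symbols were updated through a RefSeq gene table of GRCm38.p6 (17558 current, 3410 by synonym, 52 kept). Where a gene had several probes, the brightest on average represented it. With 1 array per day there was no test. Genes named were the 10 members, 6 defining myeloid markers and up to 4 genes per list with the largest 2-fold differences. The members, lists and motifs were chosen with earlier results of these data known. The 11 alternatives covered normalization, floor, offset, detection, probe choice and the authors' table. Floor, detection, probe choice and raising dim signals to the threshold cannot change the difference of a single-probe gene above the threshold on both days.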

Additional observations from a re-analysis of the deposited data

How the results depend on the processing

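The 4 genes beyond 2-fold, Vsig4, Cd14, Csf1 and Csf1r, kept their direction in every one of the 11 alternatives that gave them a value. Several of these, such as the floor and detection alternatives, could only repeat the main value and are no separate check. Median scaling over all gene probes shifted the median of detected genes to -0.49, and there 1 gene of the group was 2-fold higher (Vsig4), 4 were 2-fold lower (Csf1, Csf1r, Ly96 and Myd88) and the median of the group was -0.97. Without normalization the median of detected genes stood at 0.67 and that of the group at 0.12. In the authors' table, which held 6 of the 10 genes and no value for Vsig4 or Csf1r, 1 was 2-fold higher and 1 lower, and with detection required on both days 1 was 2-fold lower. Over all genes, the counts higher and lower were 829 and 2586 under median scaling over all gene probes, 3940 and 315 with no normalization, 2237 and 1793 with detection by the 95th percentile of empty spots, and 814 and 695 in the authors' table. Of the values for single genes of the group under alternatives, 80 moved by less than the repeat-spot SD and 26 by more. Many of the 80 came from settings that could only repeat the main value, so these counts do not measure robustness. With no normalization every gene of the group moved by more, and under median scaling over all gene probes all but Csf1r and Cd68 did. No paired analysis was possible because each day was 1 array. Differences in dim probes (Csf1r, Cd68, Tlr3) and in saturated ones (C3, Saa3) are limited by the signal range, and the number of arrays limits the precision of every value.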

Other observations

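Markers of other cell types were detected in part. S100a8, a calcium-binding protein gene of neutrophils, read 4318.5 on day 3 and 590 on day 0 (2.87), while S100a9, which encodes its usual partner, read 7 on day 3 and 14 on day 0. Of 8 neutrophil markers on the array 4 were detected, with differences of 0.45 to 2.87 and a median of 0.99. Among them Retnlg, at 195.5 on day 3 and 67.5 on day 0, was at least 1.60-fold higher. Of 10 lymphocyte markers 3 were detected, with differences of 0.52 to 1.21 and a median of 0.97, and the B cell receptor gene Cd79a read 293 on day 3 and 127 on day 0 (1.21). Of 8 endothelial markers 3 were detected, with Pecam1 at 568.5 on day 3 and 189.5 on day 0 (1.58) and Kdr at least 1.38-fold lower. Of 7 epithelial markers 3 were detected, with the keratin gene Krt14 at 387.5 on day 3 and 150.5 on day 0 (1.36). Of 9 adipocyte markers 3 were detected, with Lpl, saturated on day 3, at least 6.99-fold higher (2.83 by its other probe), Pparg at -0.71 and Cebpa at -0.06. Adipoq read 120.5 on day 3, just under the threshold of 122, and 12 on day 0. S100a9, Pparg, Cebpa and Adipoq were named after their values were seen.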
